A study of Mus musculus with 4 samples.

Results

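The 40 genes described here carry cells from G1 into S phase and copy the DNA: cyclins D and E and their kinases, the activator E2F factors, and the machinery of replication from origin licensing to Okazaki fragment ligation. The rule for choosing them is a list of gene symbols and uses no measured value, though the list was chosen with earlier results of these data known. Each gene was read from the probe sets of an Affymetrix mouse array that are annotated to its symbol alone. All 40 had such a probe set, of 18193 genes on the array. They took up 99 probe sets, and each gene is given by the probe set with the highest mean signal over the arrays, called here the brightest.

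The cells were ST2, an established fibroblast-like stromal line from the bone marrow of BALB/c mice, grown at 37 °C in RPMI 1640 with 10% fetal bovine serum and 5% CO2. Low-intensity pulsed ultrasound (LIPUS), used in the clinic to help bone fractures heal, was applied at 25 mW per square cm for 20 min, and cells were then kept at 37 °C for 0.5, 1 or 3 h. Control cells were kept at 37 °C. The series asked which genes respond early to LIPUS, and the labels give neither the harvest time of the control cells nor any sham exposure. They name no serum withdrawal or other step that would arrest cells before S phase in any of the 4 groups.

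In a dividing cell, D-type cyclins with Cdk4 and Cdk6, and then E-type cyclins with Cdk2, phosphorylate the retinoblastoma protein and free the E2F factors that it holds. E2F factors switch on genes needed for S phase, among them most of the replication genes described here. Origins are first licensed, when ORC, Cdc6 and Cdt1 load the MCM helicase, and then fire, when the helicase is activated and polymerases, the sliding clamp and the single-strand binding protein RPA follow it. Bone marrow stromal cells in serum pass through this cycle repeatedly, and many of these transcripts peak around the G1/S boundary, so their level in a culture also follows the share of its cells near that boundary.

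Each group was measured on 1 array, so there was no replicate spread, no test and no p-value, and the small number of arrays limits how precise each value below can be. Genes were counted by size of difference, at 2-fold, which is 1 on the log2 scale, and at 0.32 on the log2 scale, which is 25% higher or 20% lower. The floor was the median of all values, log2 5.23. As the only gauge of technical error, the 2 brightest measured probe sets of a gene were compared. The SD between probe sets was that of the difference between their log2 ratios, divided by the square root of 2. It was 0.11, 0.16 and 0.14 at 0.5, 1 and 3 h over 5004 genes. Over the 28 of the 40 genes with more than 1 measured probe set it was 0.05, 0.12 and 0.09. Both probe sets share the same arrays, so this SD leaves out error common to an array or a culture. Ratios to the control share 1 control array, so an unusual control value would enter all 3 of them.

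The arrays had medians from 5.21 to 5.25 and correlated at Pearson's r of 0.996 to 0.997 over probe sets, which are not independent. Of 15 stromal markers with a probe set, 13 were above the floor on all 4 arrays, and Lum and Thy1 were under it. Of 9 haematopoietic markers, Csf1r and Cd3e lay above the floor on all arrays, and the log2 of the list's summed signal ran from 7.89 to 7.98, with Ptprc under the floor throughout. Endothelial and adipocyte lists had 1 marker each above the floor on all arrays, Kdr and Fabp4, and log2 summed signals of 6.68 to 6.91 and 10.02 to 10.35, with Pecam1 and Adipoq under the floor. The 24 probe sets of the spiked poly-A controls were higher than in the control array by medians of 0.29 at 1 h and 0.39 at 3 h, in 24 of 24 both times, against a median of -0.05 at 0.5 h. Hybridisation controls were at medians of -0.11, 0.08 and 0.02, with 1 of 18 higher at 0.5 h, and the 3 probe sets of 18S ribosomal RNA at 0.96, 1.91 and 1.79. The log2 signal of 5' minus 3' probe sets of Gapdh, relative to the control array, was -0.06, -0.16 and -0.16 at 0.5, 1 and 3 h, and that of Actb -0.03, -0.13 and -0.09. For Pcx it was -0.09, -0.23 and -0.22, and for Tfrc -0.41, -0.30 and -0.14. The part of these array differences in the ratios below was not tested.

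The transcripts of the G1/S and replication machinery stayed close to their control level through 3 h after LIPUS. All 40 genes were above the floor on all 4 arrays, with log2 signals between 5.27 and 12.89, and 0 of 40 differed by 2-fold at any time, where 0.138%, 0.191% and 0.0691% of all measured genes did at 0.5, 1 and 3 h. The 40 genes had median log2 ratios of -0.03, -0.0016 and -0.05 at these times, beside 0.01, 0.02 and 0.01 over all measured genes (11574, 11497 and 11574 genes). At 0.5 h ratios ran from -0.23 for Ccne2 to 0.13 for Cdk2. At 1 h they ran from -0.37 for Ccnd3 to 0.25 for Tyms, and at 3 h from -0.27 for E2f1 to 0.14 for Rfc4. Their SD over the 40 genes was 0.08, 0.12 and 0.12 in that order, beside 0.16, 0.22 and 0.18 over all measured genes, a spread that also holds dimmer genes.

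**Figure D1:**
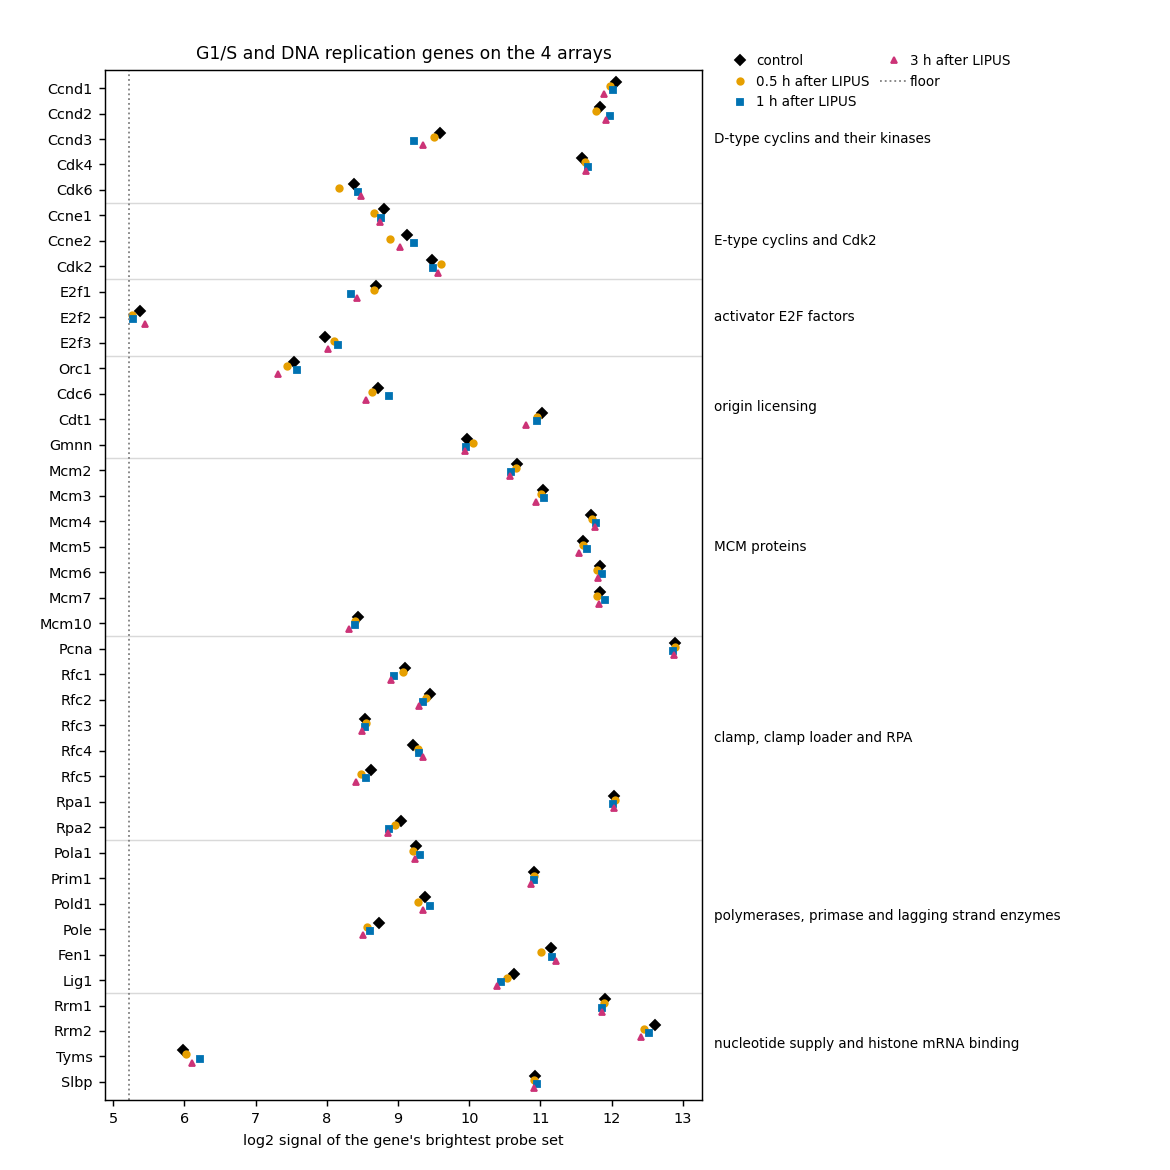
Log2 signal (horizontal axis) of the brightest probe set of each of the 40 genes on the control array (diamonds) and at 0.5 h (circles), 1 h (squares) and 3 h (triangles) after LIPUS, 1 array per symbol and grouped by role, with the floor as a dotted line. The 4 symbols of a gene are offset vertically so that they can be told apart, and they lie within 0.37 of each other for every gene.

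Small differences below 0 outnumbered those above it at 0.5 and 3 h and not at 1 h. Below 0 lay 29 of 40 genes at 0.5 h, 20 of 40 at 1 h and 30 of 40 at 3 h, beside 46.9%, 45.1% and 47.5% of all measured genes. At 1 h the split moved with the scaling, to 26 of 40 under quantile normalization and under cyclic loess and to 17 of 40 after median centring, and at 0.5 h it was 33 of 40 under quantile normalization, 27 of 40 after median centring and 21 of 40 with the mean of the remaining 3 arrays in place of the control. Within 0.1 of the control lay 29 genes (72.5%) at 0.5 h, 30 genes (75%) at 1 h and 22 genes (55%) at 3 h, and over all measured genes these shares were 60.1%, 42.2% and 49.3%. Past 0.32 lay 0 of 40 genes at 0.5 h, Ccnd3 and E2f1 at 1 h, both lower, and 0 of 40 at 3 h. Over all measured genes, 1.37% were higher and 1.29% lower by that size at 0.5 h, 5.32% higher and 4.25% lower at 1 h, and 3.26% higher and 2.93% lower at 3 h. The 2 of 40 at 1 h are therefore near the share that all genes gave, and as means over their measured probe sets Ccnd3 was at -0.27 and E2f1 at -0.21, both short of 0.32. In RNA from a whole culture, fewer cells near the G1/S boundary and less RNA per cell cannot be told apart.

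**Figure D2:**
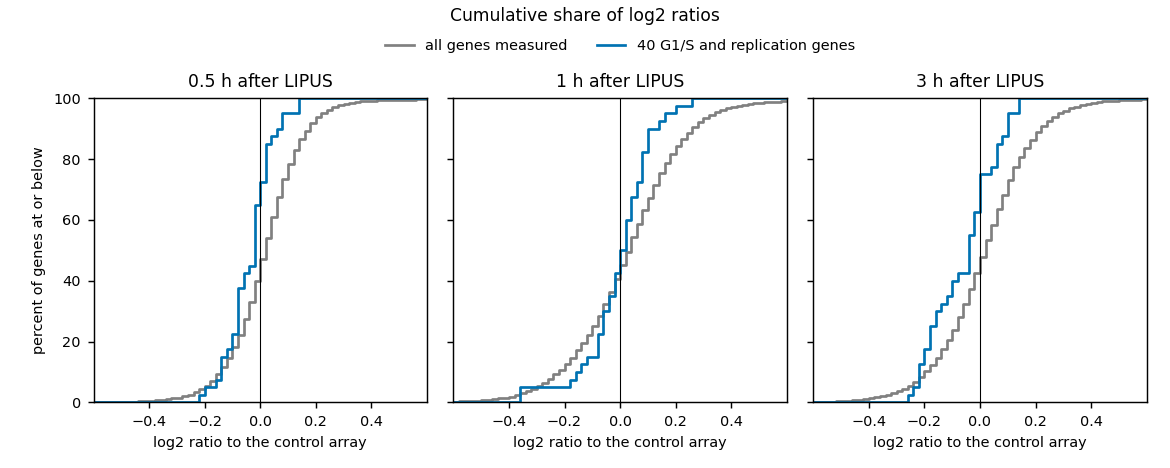
Percent of genes (vertical axis) with a log2 ratio to the control array at or below the value on the horizontal axis, for the 40 genes (blue) and for all measured genes (grey), in a panel each for 0.5, 1 and 3 h after LIPUS. The blue line is steeper in each panel and reaches 0 at 29, 20 and 30 of the 40 genes.

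The D-type cyclins couple growth signals to the cell cycle, and all 3 were slightly below the control at 0.5 h and on different sides of it at 1 and 3 h. Ccnd1, the cyclin D1 gene, had log2 signals of 12.06, 11.98, 12.02 and 11.89 on the control array and at 0.5, 1 and 3 h, an order kept for every gene below, with ratios of -0.08, -0.04 and -0.17. Ccnd2 read 11.84, 11.78, 11.97 and 11.93, with ratios of -0.07, 0.13 and 0.08. The 2 genes thus ended on opposite sides of the control at 3 h, both within 0.32. Of the 40 genes Ccnd2 had the most probe sets above the floor on all 4 arrays, and these 7 ran from 0.0053 to 0.44 at 1 h, with 1 of 7, 1416123_at, past 0.32. That probe set read 8.62, 8.72, 9.06 and 8.83. Ccnd3, the cyclin D3 gene, read 9.59, 9.50, 9.23 and 9.35, ratios of -0.10, -0.37 and -0.24, so it was 1.29-fold below the control at 1 h. Its other measured probe set read 6.78, 6.80, 6.61 and 6.69, a ratio of -0.17 at 1 h, so both pointed down with 1 of them past 0.32. Ccnd3 was the lowest of the 40 at 1 h by its brightest probe set.

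Neither partner kinase passed 0.32 by its brightest probe set. Cdk4 read 11.59, 11.62, 11.67 and 11.64, with ratios of 0.03, 0.08 and 0.05. Cdk6 read 8.38, 8.17, 8.44 and 8.48, lower at 0.5 h alone (-0.21) and at 0.06 and 0.10 later. At 1 h a dim probe set of Cdk6, 1460291_at, which read 5.88, 5.68, 5.51 and 5.95, was at -0.37, opposite in sign to the brightest. The remaining set, 1455287_at, had the signs of the brightest, at -0.23, 0.07 and 0.12. The E-type cyclins drive entry into S phase with Cdk2. Ccne1 read 8.80, 8.67, 8.76 and 8.75 by an _x_at set, and its ratios were -0.13, -0.04 and -0.05. Its other set, 1416492_at, was at -0.09, -0.17 and -0.24. Ccne2 read 9.12, 8.89, 9.22 and 9.03, so it was the lowest of the 40 at 0.5 h (-0.23), above the control at 1 h (0.10) and below it again at 3 h (-0.09). Cdk2 read 9.48, 9.60, 9.49 and 9.56, the highest ratio of the 40 at 0.5 h (0.13) and little from the control later (0.01 and 0.08).

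Among the E2F factors that activate transcription, E2f1 was the only one past 0.32. It read 8.69, 8.66, 8.33 and 8.43, with ratios of -0.03, -0.36 and -0.27, so it was near the control at 0.5 h and 1.29-fold below it at 1 h. Its other measured probe set read 8.32, 8.36, 8.27 and 8.25, with ratios of 0.04, -0.05 and -0.07, so the size of the difference rested on 1 probe set. E2f3 went the other way at 1 h, reading 7.97, 8.09, 8.16 and 8.01 with ratios of 0.12, 0.18 and 0.04. Its other measured probe set, 1427462_at, was at -0.0044, 0.08 and -0.14, so above the control at 1 h alone. E2f2 read 5.38, 5.27, 5.28 and 5.44, close to the floor on all arrays, where little can be said of a ratio.

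Many replication genes are known targets of E2F, and the sequences below show the spelling of E2F sites in the promoters of 7 of the genes measured here. The search took the 4 spellings TTTCCCGC, TTTCGCGC, TTTGCCGC and TTTGGCGC and their reverse complements, in windows of 250 bases before to 50 bases after the RefSeq start. Of the 40 genes 33 had a window, and 14 of these (42.4%) held a match. Beside these, 704 of all 27025 genes with a window (2.6%) held one. Of 9449 genes with a window and above the floor on at least 1 array, 449 did (4.75%). Matches overlapped each other in Mcm5 and Mcm6. The stretches below are from RefSeq on GRCm38.p6, run 5′ to 3′ on the strand of the gene, lie before its start site, and have the matched bases in capitals: Orc1 at chr4:108579407-108579453 (plus strand), Cdc6 at chr11:98907993-98908040 (plus), Mcm5 at chr8:75109336-75109387 (plus), Mcm6 at chr1:128359725-128359835 (minus), Mcm7 at chr5:138172021-138172068 (minus), Pola1 at chrX:93632266-93632313 (minus) and Cdk2 at chr10:128705164-128705211 (minus).
Orc1: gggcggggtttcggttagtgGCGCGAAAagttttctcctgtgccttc
Cdc6: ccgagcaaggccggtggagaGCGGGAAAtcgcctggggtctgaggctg
Mcm5: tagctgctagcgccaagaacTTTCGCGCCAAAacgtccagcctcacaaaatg
Mcm6: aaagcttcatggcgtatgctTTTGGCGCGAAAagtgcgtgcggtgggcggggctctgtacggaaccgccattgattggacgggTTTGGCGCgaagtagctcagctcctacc
Mcm7: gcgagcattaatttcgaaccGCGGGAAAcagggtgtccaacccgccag
Pola1: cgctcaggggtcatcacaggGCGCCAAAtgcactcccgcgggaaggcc
Cdk2: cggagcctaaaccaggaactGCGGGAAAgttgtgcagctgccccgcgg
They were chosen because they cover licensing, the helicase, the polymerase and the kinase, and a match is a description of letters rather than a measured binding site. The other genes with a match were E2f2, E2f3, Cdt1, Mcm3, Rfc3, Pold1 and Lig1, and by role matches were found in 3 of 3 licensing genes with a window, 4 of 6 MCM genes and 0 of 3 of the cyclin D group. The 14 genes with a match had median ratios of -0.04, 0.03 and -0.04 at 0.5, 1 and 3 h, and the 19 without one had -0.02, -0.03 and -0.05. At 1 h 3 of the 14 and 13 of the 19 were below 0, and from 1 h to 3 h 12 of the 14 and 12 of the 19 were, with medians of -0.10 and -0.02. Of the 14, Mcm3, Mcm5, Mcm7 and Pold1 were read from _s_at or _x_at sets, a suffix for probes shared with other sequences. Their brightest sets without it were at -0.12, -0.35, 0.02 and -0.15 at 1 h. Of the 19, Cdk4, Ccne1, Fen1 and Rrm2 were read from such sets, and without it were at -0.0047, -0.17, -0.09 and -0.08. These counts were not repeated under other scalings, and a difference by match was not tested.

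Each of the 4 licensing genes had its lowest signal at 3 h. Orc1, the largest subunit of the origin recognition complex whose promoter is shown above, read 7.54, 7.44, 7.57 and 7.32, with ratios of -0.09, 0.04 and -0.22. Cdc6, which joins ORC to load the helicase, read 8.72, 8.64, 8.87 and 8.55, so it was above the control at 1 h (0.15) and below it at 3 h (-0.17). Cdt1, which brings the MCM ring to the origin, read 11.03, 10.95, 10.95 and 10.80, a ratio of -0.23 at 3 h. A further Cdt1 probe set, 1424144_at, read 10.05, 9.99, 9.89 and 9.68, which was -0.37 at 3 h and past 0.32. Gmnn, the geminin gene whose protein blocks Cdt1, stayed within 0.08 of the control, reading 9.97, 10.05, 9.95 and 9.94. All 4 of these licensing genes were below 0 at 3 h, with a median of -0.20. This count was also 4 of 4 after median centring, quantile normalization and cyclic loess. Other licensing and origin firing genes did not share it, with 8 of 21 below 0 at 3 h, 13 above and a median of 0.02. Among those above by their brightest probe sets were Orc2 to Orc6, at 0.05, 0.14, 0.19, 0.15 and 0.22. Further probe sets of Orc2 were at -0.18 and -0.22.

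Genes of the MCM helicase, which unwinds DNA at the fork, had no ratio larger in size than 0.12 by their brightest probe sets. These ratios lay between -0.04 and 0.02 at 0.5 h, between -0.09 and 0.08 at 1 h and between -0.12 and 0.06 at 3 h. Mcm2 read 10.67, 10.65, 10.59 and 10.57, below the control at all 3 times. Its other measured probe set, 1434079_s_at, was above the control at all 3 times (0.08, 0.17 and 0.02). Mcm4 read 11.71, 11.73, 11.78 and 11.77, the only one of the 7 above the control at 3 h by brightest probe sets. Another set of Mcm4, 1436708_x_at, was at -0.03 at 3 h. Mcm6 read 11.84, 11.80, 11.87 and 11.81, and Mcm7 read 11.83, 11.80, 11.91 and 11.82, both highest at 1 h by brightest probe sets. Not all their sets shared this, with 1438852_x_at of Mcm6 at -0.16, -0.11 and -0.16 and 1416031_s_at of Mcm7 at -0.06 at 1 h. At 0.5 and 1 h all 7 ratios by brightest probe sets were smaller than the SD between probe sets over the 28 genes, 0.05 and 0.12. Mcm10, which joins the active helicase and is no subunit of the ring, read 8.43, 8.40, 8.40 and 8.31.

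Mcm3 and Mcm5 also differed between their own probe sets. The brightest probe set of Mcm3 read 11.04, 11.01, 11.04 and 10.94, with ratios of -0.03, 0.0044 and -0.10, whereas 1426653_at read 9.03, 8.95, 8.55 and 8.57, with ratios of -0.08, -0.48 and -0.46. The range of 0.48 at 1 h was the widest within any of the 28 genes at that time. Likewise the brightest probe set of Mcm5 read 11.59, 11.60, 11.65 and 11.54 and stayed within 0.06 of the control, and 1415945_at read 10.44, 10.29, 10.09 and 10.09, at -0.35 at both 1 and 3 h. Both brightest probe sets carry a suffix (_s_at or _x_at) that marks probes shared with other sequences, so their signal may include other transcripts. The direction at 1 h was thus opposite, or near 0 against lower, between probe sets of one gene. At 3 h the measured probe sets of Mcm3 and of Mcm5 were all below 0.

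Pcna, the sliding clamp that tethers polymerases, read 12.88, 12.89, 12.86 and 12.88, with ratios of 0.0043, -0.02 and -0.0017. Of the 5 clamp loader genes, whose products open the ring, 4 were below the control at 3 h. Rfc1, the large loader subunit, read 9.09, 9.07, 8.94 and 8.91, with ratios of -0.02, -0.15 and -0.19. Its probe set 1451920_a_at read 8.46, 8.05, 8.15 and 7.92, which was -0.41, -0.30 and -0.53, the lowest value of any measured probe set of the 40 genes at 0.5 h and at 3 h. Small loader subunits were split: Rfc2 read 9.45, 9.40, 9.36 and 9.30, and Rfc5 read 8.62, 8.48, 8.56 and 8.42. Rfc4, by contrast, read 9.21, 9.28, 9.30 and 9.35, and both of its measured probe sets were above the control at all 3 times. Rfc3 stayed within 0.05 by its brightest probe set, reading 8.54, 8.56, 8.54 and 8.49, and 1432538_a_at was at -0.16 at 3 h. Of the RPA subunits that coat single-stranded DNA, Rpa1 read 12.04, 12.04, 12.02 and 12.03. By brightest probe sets its ratios of 0.0067, -0.01 and -0.0050 were the nearest to 0 of the 40 genes over the 3 times. Its other measured probe set, 1423293_at, was lower, at -0.08, -0.225 and -0.20. Rpa2 read 9.04, 8.96, 8.88 and 8.85 (-0.09, -0.17 and -0.19). Below 0 at 3 h lay 7 of these 8 genes, with a median of -0.10.

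The polymerase and lagging strand genes were all below the control at 0.5 h, 6 of 6 with a median of -0.10. After median centring these were 5 of 6 and -0.09, and with the mean of the remaining 3 arrays in place of the control 4 of 6 and -0.05. Pole, the catalytic subunit of the leading strand polymerase, read 8.73, 8.56, 8.60 and 8.51, with ratios of -0.17, -0.13 and -0.22. Pold1, its counterpart on the lagging strand, read 9.38, 9.28, 9.46 and 9.35, below the control at 0.5 and 3 h and above it at 1 h. These values are from an _x_at set, and 1448187_at of Pold1 was below the control at all 3 times (-0.14, -0.15 and -0.21). Lig1, the ligase that seals Okazaki fragments, read 10.63, 10.53, 10.45 and 10.39, each array below the one before it, and its ratio at 3 h, -0.24, was the third lowest of the 40. Fen1, the flap nuclease of the same step, read 11.15, 11.01, 11.16 and 11.22, and was above the control at 3 h (0.07). That is an _x_at set too, and 1421731_a_at of Fen1 was below the control at 3 h (-0.105). For the polymerase alpha and primase complex, which lays down primers, Pola1 read 9.25, 9.21, 9.30 and 9.23, and Prim1 read 10.92, 10.91, 10.91 and 10.86. Both stayed within 0.06 of the control by their brightest probe sets, and another set of Prim1, 1449061_a_at, was at -0.17 at 0.5 h.

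Deoxynucleotides are made by ribonucleotide reductase. Rrm1, its large subunit, read 11.91, 11.89, 11.87 and 11.87, and its probe set 1448127_at was at -0.01, -0.24 and -0.21. Rrm2, the S phase subunit, read 12.60, 12.45, 12.53 and 12.41, with ratios of -0.15, -0.08 and -0.20. The measured probe sets of Rrm2 were all below 0 at each time, and 1416120_at, which read 11.52, 11.45, 11.15 and 11.11, was past 0.32 at 1 h (-0.37) and 3 h (-0.40). The brightest probe set of Rrm2 is an _x_at set. Tyms, the thymidylate synthase gene, read 5.98, 6.02, 6.22 and 6.11, and its ratio at 1 h, 0.25, was the highest of the 40. Its signal lay within 1 log2 unit of the floor, and its other 3 probe sets were under the floor on all 4 arrays. Slbp, whose protein binds the stem-loop of histone mRNAs, read 10.92, 10.90, 10.94 and 10.91 and stayed within 0.03 of the control. A dim probe set of Slbp, 1430058_at, read 5.61, 5.60, 5.95 and 5.58, past 0.32 at 1 h alone.

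Most probe sets of the 40 genes were below 0 by small amounts at 0.5 and 3 h, and few were past 0.32. Of 99 probe sets, 84 were above the floor on all 4 arrays, 14 were under it on all 4 and 1 was mixed. Among the 84, 63 were below 0 at 0.5 h, 48 at 1 h and 63 at 3 h, with medians of -0.05, -0.03 and -0.07. Past 0.32 at 0.5 h were 0 higher and 1 lower, where 1.41% and 1.85% of 19252 measured probe sets were. At 1 h these counts were 2 higher and 6 lower, where 6.13% and 5.09% were, and at 3 h 0 higher and 5 lower, where 3.32% and 4.41% were. The lower counts are thus near the shares that all probe sets gave. Over all probe sets, too, more were lower than higher at 0.5 and 3 h. The 2 higher probe sets belonged to Ccnd2 and Slbp, and the 6 lower ones at 1 h to Ccnd3, Cdk6, E2f1, Mcm3, Mcm5 and Rrm2. The 5 at 3 h belonged to Cdt1, Mcm3, Mcm5, Rfc1 and Rrm2.

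Probe sets of one gene did not always point the same way. Among the 28 genes with more than 1 measured probe set, 17, 16 and 23 had all of them on one side of 0 at 0.5, 1 and 3 h, and 15, 11 and 20 had all of them below 0. These counts were not made over all genes, so no background share stands beside them. Probe sets of one gene share the same arrays and are not independent readings. The range within a gene was 0.32 or more in 1, 4 and 2 genes. The 19 probe sets with an _s_at or _x_at suffix had medians of -0.03, 0.05 and -0.04, and the other 65 had -0.05, -0.04 and -0.11. Over all probe sets the same medians were 0.01, 0.04 and 0.01 for 2629 suffixed ones and 0.0012, 0.02 and 0.0000 for 16623 others. The probe sets of Gapdh, Actb, Pcx and Tfrc differed between the ends of the transcript, as given above, and the part of that in these values was not tested.

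**Figure D3:**
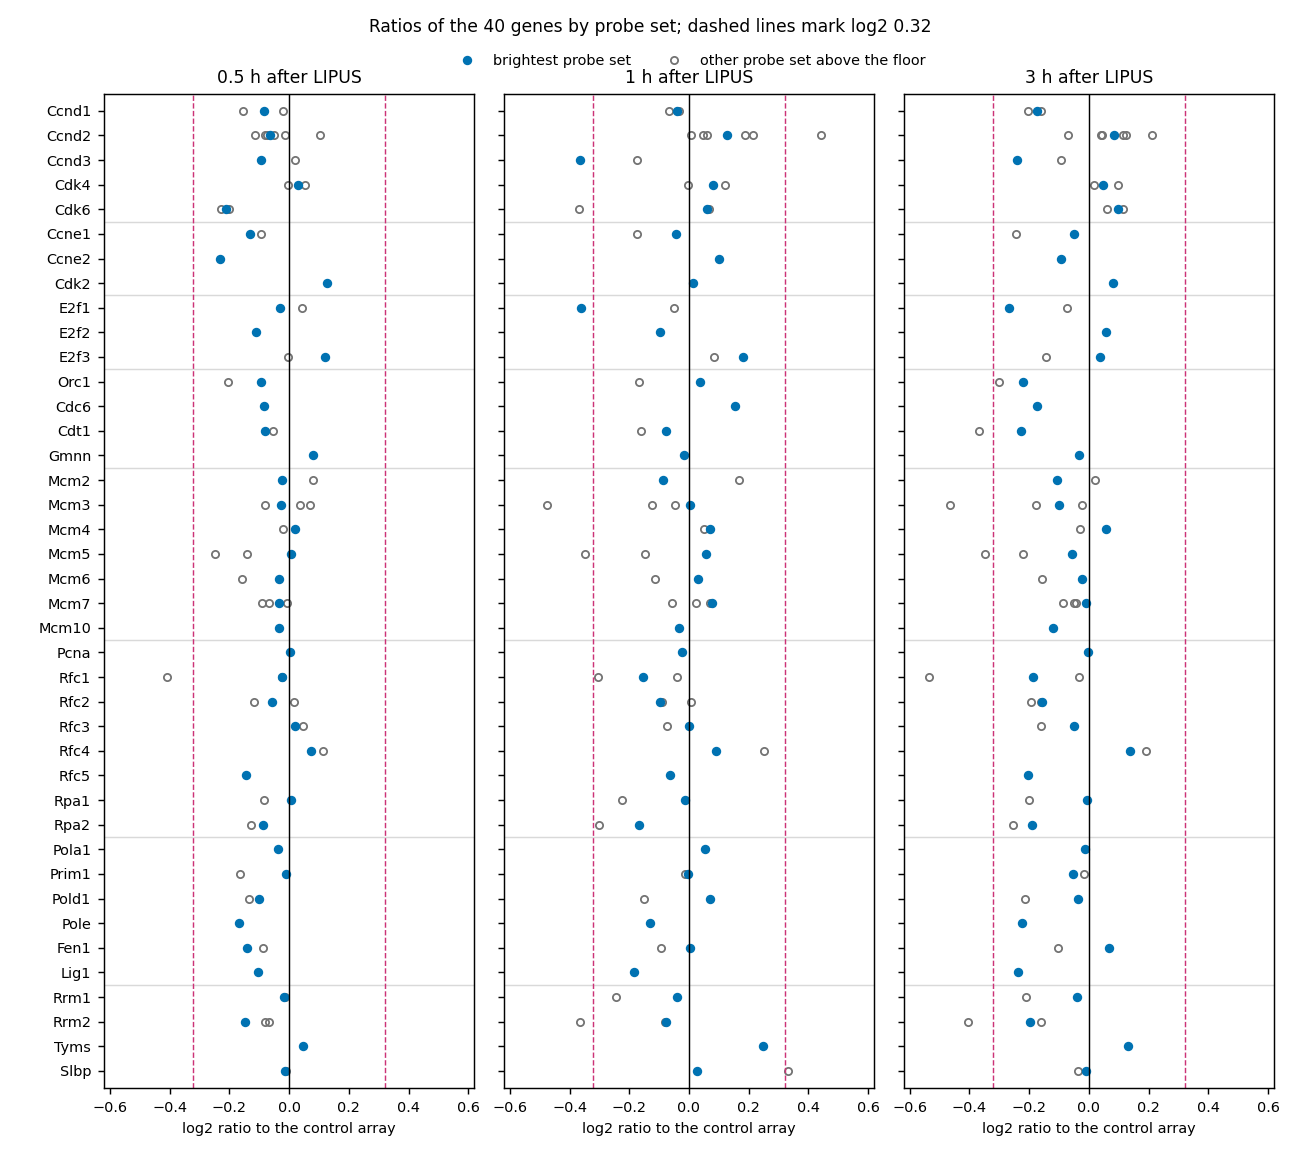
Log2 ratio to the control array (horizontal axis) for each measured probe set of the 40 genes, in a panel each for 0.5, 1 and 3 h after LIPUS, with the brightest probe set of a gene filled, the others open, and 0.32 on either side of 0 as dashed lines. Past the left dashed line lie 1, 6 and 5 probe sets, and past the right one 0, 2 and 0.

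Between one LIPUS array and the next, the control array plays no part. From 0.5 h to 1 h, 14 of 40 genes were below 0, beside 46.4% of 11507 measured genes, with a median of 0.04 against 0.01 over all genes. With the brightest probe set free of shared-probe suffixes, chosen after seeing the data, 20 of 40 were below 0 and the median was -0.0000. Ccne2 was 1.26-fold higher at 1 h than at 0.5 h (0.33) and E2f1 1.26-fold lower (-0.33), the only 2 of 40 past 0.32, where 3.31% of all genes were higher and 2.09% lower. From 1 h to 3 h, 31 of 40 were below 0, beside 54.7% of 11494 genes, with a median of -0.05 against -0.01. The count below 0 was 25 of 40 under quantile normalization and 24 of 40 under cyclic loess. Cdc6 alone passed 0.32, at -0.33, where 1.74% of all genes were higher and 2.36% lower, and under quantile normalization and cyclic loess it was short of 0.32, at -0.29 and -0.28. Ccne2 was short of it in the earlier step under both scalings, at 0.30. Past 2-fold were 0 of 40 genes in both steps, where 0.0435% and 0.087% of all genes were. By role, 7 of 7 MCM genes were below 0 in the later step, between -0.01 and -0.11, and 6 of 7 under quantile normalization and 5 of 7 under cyclic loess. The 4 licensing genes were all below 0 in it too, with a median of -0.20, and 3 of 4 under quantile normalization and cyclic loess. The part in this step of the poly-A controls, which were higher at 3 h than at 1 h, was not tested.

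The other genes of the pathway, on a list of 74 of which 71 were measured, passed 2-fold in 0 cases. Cdkn1c was under the floor. Past 0.32 were 1 higher and 0 lower at 0.5 h, 4 higher and 3 lower at 1 h, and 2 higher and 3 lower at 3 h, and the median ratios were 0.0025, 0.04 and 0.0000. As shares of the 71 genes, 5.63% higher and 4.23% lower at 1 h and 2.82% and 4.23% at 3 h are near those of all genes given above. The split at 1 h turned with the scaling, to 2 higher and 6 lower under quantile normalization and 1 higher and 4 lower under cyclic loess. The inhibitors of the cyclin-dependent kinases were above these medians, at 0.11, 0.16 and 0.19 over the 6 measured, with 1, 1 and 2 of the 6 below 0. These medians were not repeated under other scalings, and the inhibitors short of 0.32 were named after their values were seen. Cdkn2a, which encodes p16Ink4a and p19Arf, had the largest ratio of the list and read 5.91, 6.21, 6.68 and 6.39, with ratios of 0.30, 0.78 and 0.49 on a single dim probe set. Cdkn2c, encoding p18Ink4c, read 10.39, 10.55, 10.57 and 10.73, which was 0.34 at 3 h. Cdkn1b, encoding p27Kip1, read 10.36, 10.45, 10.50 and 10.66, short of 0.32 at 3 h (0.30). Its other measured probe set read 6.98, 6.79, 6.71 and 6.97, opposite in sign to the brightest at -0.20, -0.28 and -0.02. Cdkn2d, encoding p19Ink4d, went the other way and read 9.30, 9.06, 8.88 and 9.28, so it was -0.42 at 1 h, back near the control at 3 h, and 0.40 higher at 3 h than at 1 h. The p53 target Cdkn1a, encoding p21Cip1, read 10.95, 11.01, 11.02 and 10.75, and Cdkn2b, encoding p15Ink4b, 5.91, 6.04, 6.19 and 5.99. Another set of Cdkn1a, 1421679_a_at, was at -0.095, 0.0995 and -0.23, opposite in sign to the brightest at 0.5 h alone.

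**Figure D4:**
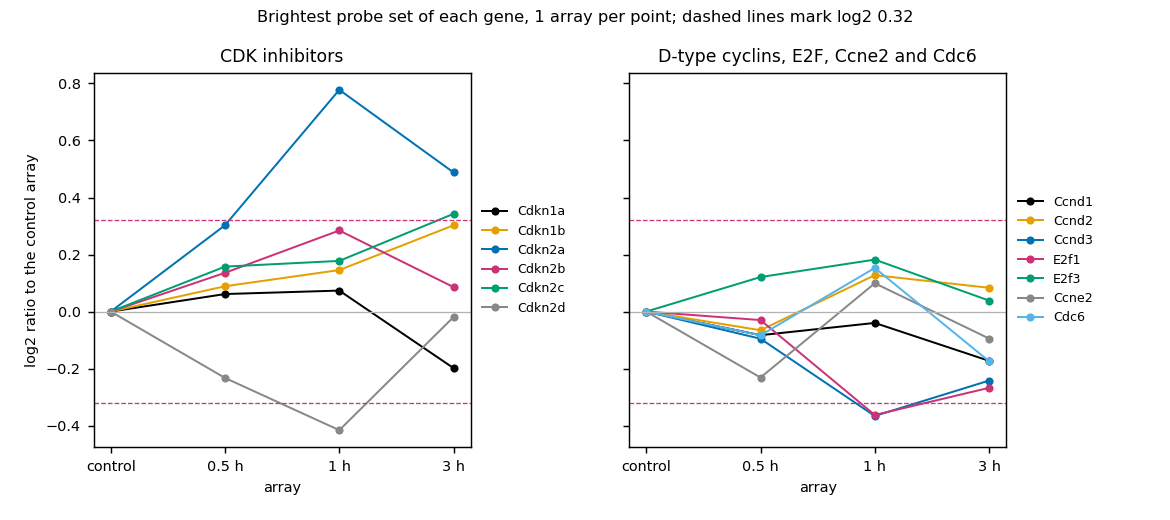
Log2 ratio to the control array (vertical axis) on each array in turn (horizontal axis) for 6 inhibitors of cyclin-dependent kinases on the left and for Ccnd1, Ccnd2, Ccnd3, E2f1, E2f3, Ccne2 and Cdc6 on the right, 1 array per point and 0.32 on either side of 0 as dashed lines. Cdkn2a is highest at 1 h at 0.78, Cdkn2d is lowest there at -0.42, and Ccnd3 and E2f1 run below the lower dashed line at 1 h alone.

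Of the other partners of the 40 genes, 9 passed 0.32 in a comparison. Orc6, the smallest subunit of the origin recognition complex, read 8.56, 8.89, 8.92 and 8.78, higher by 0.34 at 0.5 h and by 0.36 at 1 h. Gins1, a subunit of the GINS complex of the active helicase, read 8.34, 8.60, 8.68 and 8.49 (0.33 at 1 h), and Rpa3, the small RPA subunit, read 9.39, 9.69, 9.72 and 9.59 (0.32 at 1 h). Lower genes were Chtf18, of an alternative clamp loader, which read 8.22, 7.91, 7.87 and 7.87 (-0.35 at 1 h and -0.36 at 3 h), and E2f7, a repressor of E2F targets, which read 10.11, 9.83, 9.78 and 9.94 (-0.33 at 1 h). At 3 h Timeless, of the fork protection complex, which read 9.33, 9.07, 9.11 and 8.96, was at -0.37, and Recql4, a helicase of origin firing, which read 7.01, 6.79, 6.71 and 6.67, was at -0.34. From 0.5 h to 1 h the genes past 0.32 were Cdkn2a (0.47), Dna2 (0.40), an Okazaki fragment nuclease that read 6.36, 6.23, 6.62 and 6.54, and Fbxw7 (0.35), of the ligase that degrades cyclin E. Fbxw7 read 7.62, 7.57, 7.92 and 7.83 by an _s_at probe set, and its other set read 7.55, 7.43, 7.41 and 7.44, not higher at 1 h than at 0.5 h.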

How the data were processed

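For total RNA of ST2 cells, the values deposited by the authors, 1 for each probe set on each array, were taken as log2 from their range. The base, the summary method and the scaling are not given in the sources used here, so any compression of ratios by them would carry over. Per the labels' protocols, 500 ng of RNA with an integrity number above 9.5 was labelled with a 3' kit, so signal comes mostly from the 3' end of a transcript. The array held 45101 probe sets. Of these 34958 had 1 symbol, updated through the Entrez number for 34754. Left out were 932 with several symbols, 64 controls, of which 13 were among those with 1 symbol, and 9160 others not listed. Values under the floor were raised to it, and a gene entered a comparison with at least 1 of its 2 arrays above the floor. That left 11685 of 18193 genes above it on at least 1 array and 11014 (60.5%) on all 4. The 5 comparisons were LIPUS arrays minus the control, 1 h minus 0.5 h and 3 h minus 1 h.

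The 40 genes, the pathway lists and the marker lists were chosen with earlier results of these data known. Every one of the 40 was to be named, and other pathway genes past 0.32 in a comparison with both arrays above the floor. Beyond these, the other kinase inhibitors, the second probe sets and the grouping of probe sets by suffix were chosen after their values were seen. The brightest probe set was that with the highest mean over the 4 arrays. Promoter windows matched for 33 of the 40 symbols. Alternatives covered the floor, the scaling, the probe sets, the fold and the reference array. The ratio and count steps were tested on simulated data. Python 3.11.15, numpy 2.4.6, pandas 2.3.3 and, for quantile and loess scaling, R 4.3.3 with limma 3.58.1 were used.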

Additional observations from a re-analysis of the deposited data

How the results depend on the processing

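The median log2 ratio of the 40 genes ran over the alternatives from -0.05 to -0.0068 at 0.5 h, from -0.04 to 0.03 at 1 h, from -0.11 to -0.05 at 3 h, from -0.0000 to 0.04 from 0.5 h to 1 h and from -0.09 to -0.02 from 1 h to 3 h. Below 0 lay 21 to 33, 13 to 27, 29 to 32, 13 to 20 and 24 to 33 genes in that order, and 0 of 40 passed 2-fold under any alternative run. At 1.1-fold, 6, 8 and 14 of 40 passed at 0.5, 1 and 3 h, 9 from 0.5 h to 1 h and 7 from 1 h to 3 h. Near that fold, 15%, 12.5% and 32.5% of the 40 genes lay at or below -0.14 at 0.5, 1 and 3 h. Over all measured genes these shares were 11.60%, 19.62% and 17.52%. At or below 0.14 lay 100%, 92.5% and 100% of the 40 genes, beside 86.64%, 75.33% and 80.55% of all measured genes. Shares of all genes at this fold are not given here for the steps between LIPUS arrays. At 1.5-fold there were 0 at 1 h and in both steps. The 2 calls at 1 h became 0 with the mean over all probe sets, with the mean over those above the floor and when the other 3 arrays' mean was the reference. There Ccnd3 was -0.16, -0.27 and -0.25 and E2f1 -0.16, -0.21 and -0.26. At 3 h there was 1 call with the mean over probe sets above the floor, and 1 with the brightest probe set without a shared-probe suffix, an alternative chosen after seeing the data. From 0.5 h to 1 h there was 1 under quantile normalization, cyclic loess and both means. From 1 h to 3 h there were 0 under quantile normalization and cyclic loess, with Cdc6 at -0.29 and -0.28, and 2 with the mean over probe sets above the floor.

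Of the other pathway genes, 0, 2 and 0 passed at 0.5, 1 and 3 h with that reference. At 1.5-fold these were 0, 1 and 0, and 0 in both steps. With the floor at the 75th percentile 3 passed at 3 h and 0 from 0.5 h to 1 h, where the mean over all probe sets gave 1. From 1 h to 3 h, 3 passed after median centring and 2 under cyclic loess. Fbxw7 from 0.5 h to 1 h turned to -0.0232 without shared-probe suffixes. Of 229 gene values 193 kept their direction and side of the threshold, 35 fell short of it and 1 reversed. The cause of these differences was not tested. No paired analysis was possible because each group had 1 array. E2f2, Tyms, Cdkn2a and Cdkn2b lay near the floor, which limits their ratios, and differences between cultures were not measured.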
